A study of Homo sapiens with 6 samples.

Results

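The Kruppel-like factors described here are 10 genes, KLF2, KLF4, KLF5, KLF6, KLF7, KLF9, KLF10, KLF11, KLF13 and KLF16, taken with all probes that carry their symbols in the annotation of the array. The genes were selected with their measured differences between circANRIL and vector control cells in view, so their own values are a description. No p-value of a member is given, and how many passed the threshold set for all probes is stated only as a count beside the share of all genes. Of the 10 genes, 9 had a probe, with 12 probes in all, and no probe carries the symbol KLF11 in the annotation used here. Of the 12 probes 10, from 7 genes, were detected on at least 3 of the 6 arrays, among 12134 genes measured in this way.

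Kruppel-like factors are transcription factors with a run of C2H2 zinc fingers at the carboxyl end, through which they bind GC-rich DNA, the GC box and the CACCC box. Outside the fingers the proteins differ: KLF2, KLF4, KLF5, KLF6 and KLF7 carry activating regions, KLF3, KLF8 and KLF12 recruit the co-repressor CtBP, and KLF9, KLF10, KLF11, KLF13, KLF14 and KLF16 recruit the co-repressor Sin3A. Several of them answer quickly to serum, growth factors, hormones or flow, and KLF2 and KLF4 are best known from the vessel wall, where they hold endothelial cells in a quiescent state.

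HEK-293 is an established human embryonic kidney cell line. The first group held 3 arrays of HEK-293 lines that stably overexpress circANRIL, a circular RNA of the ANRIL gene, from the bicistronic vector pBI-CMV2, which also carries GFP. The second held 3 arrays of HEK-293 lines with the pBI-CMV2 vector alone. In both, a neomycin resistance vector was cotransfected and cells were selected with G418. The authors chose overexpressing lines with a modest level of the transcript for functional studies, and the labels do not say whether the arrays come from those lines. Nor do they say whether the arrays of a group are separate lines, so that p-values cover only the variation among these 6 arrays. circANRIL itself was matched to no probe and has no value here. With 3 arrays against 3 an exact permutation test of a single gene cannot go below p = 0.1, and the number of arrays limits the precision of every value.

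Of 47315 probes, 43.4% to 46.8% were detected per array, and arrays correlated at 0.98 to 0.99 within a group and at 0.946 to 0.968 between groups. Among 21191 probes tested, 1965 were higher and 1788 lower in circANRIL cells at an adjusted p under 0.05 from limma. Of 9 HEK-293 markers with a probe, 5 were detected on all 6 arrays and PAX2 on none. The sum of their normalized intensities was 10900 to 11900 in circANRIL cells and 12900 to 15400 in vector control cells. The markers moved apart, with NEFM lower at −5.36 and INA, KRT8 and NEFL higher at 3.75, 2.30 and 1.08 (adjusted p = 2.99e-09, 1.30e-05, 6.34e-05 and 6.80e-04 from limma), and the median log2 difference, circANRIL minus vector control, over the 6 measured markers was 0.68. The 10 endothelial markers included 0 detected on all arrays and 8 on none, PECAM1, CDH5 and VWF among them. Their sums were 246 to 251 in circANRIL cells and 247 to 252 in vector control cells. The marker sums in this paragraph run over all probes of a list, undetected ones included. They keep the offset of 16 added in normalization, so undetected probes add background signal to them. Blood cell markers were detected on all arrays for 2 of 9 genes. Their sums were 849 to 1110 in circANRIL cells and 855 to 902 in vector control cells. CD68, a gene of this list, differed by 0.56 on its brightest probe (adjusted p = 0.0365 from limma). Another CD68 probe went the other way, at −1.03 (adjusted p = 0.00673 from limma). With any single array but circANRIL replicate 1 left out, no gene of the list was called. Fibroblast and smooth muscle markers were detected on all arrays for 2 of 10 genes. Their sums were 949 to 1060 in circANRIL cells and 753 to 910 in vector control cells. Squamous and gut epithelial markers were detected on all arrays for 1 of 9 genes. Their sums were 355 to 366 in circANRIL cells and 398 to 477 in vector control cells. Of the fibroblast and smooth muscle markers, ACTA2 was higher at 0.73 and COL3A1 and COL1A1 were lower at −1.67 and −0.52, with a median of −0.21 over 4 measured genes. The adjusted p values were 0.00493, 6.76e-04 and 0.0480 from limma. Both collagen genes were dim, and COL3A1 was detected on 1 of 3 circANRIL arrays. With any single array but vector control replicate 1 left out, 1 gene of the list was called lower. The part of other cell types in the results was not tested, and a lower signal from fewer cells with a transcript and from less transcript per cell cannot be told apart in bulk RNA.

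Levels are normalized intensities on the log2 scale, differences are circANRIL minus vector control on that scale, and SE is the standard error from the fit across all probes. Among the 7 measured members, 1 passed that threshold, an adjusted p under 0.05 from limma, on the higher side (KLF2), 4 on the lower side (KLF4, KLF5, KLF10 and KLF13) and 2 on neither (KLF6 and KLF9). In the same comparison 11.4% of all 12134 genes were called higher and 9.26% lower. The groups did not overlap for 5 members, 1 higher and 4 lower in circANRIL cells, and over all genes 19.2% had circANRIL arrays wholly above and 20.0% wholly below the vector control arrays. The median difference was −0.90 over the 7 members and −0.02 over all genes. The members were chosen on this contrast, so these counts repeat the choice, test nothing and nothing is read from them.

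**Figure D1:**
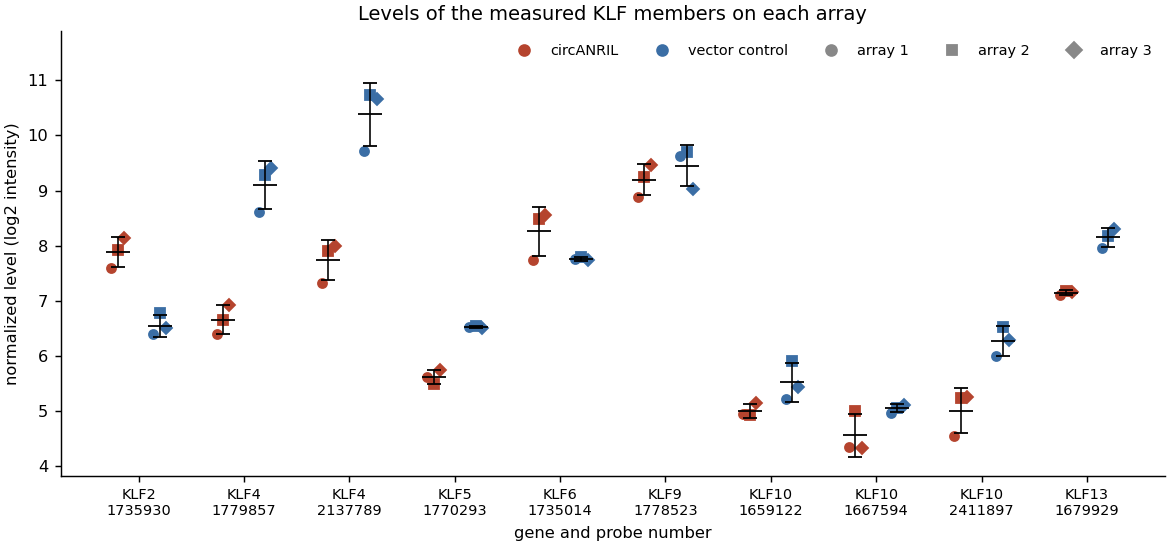
Normalized level (log2 intensity) of the 10 measured member probes on each of the 6 arrays, circANRIL in red and vector control in blue, with 1 symbol shape per array number and black bars for the mean and SD (n = 3 each). Both KLF4 probes lay lower on every circANRIL array than on any vector control array, KLF2 lay higher, and the groups overlapped for KLF6, KLF9 and 1 of the 3 KLF10 probes.

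KLF4 and KLF2 are the members at the ends of the range, and the 250 bases before the annotated start of each (RefSeq, GRCh38.p14) are printed. These stretches were searched for the GC box of the family and for 1 form of the core site of MEF2. MEF2 is the factor through which the kinase ERK5 acts on KLF2 and KLF4. The KLF4 stretch lies on the minus strand at chr9:107489770-107490019 and the KLF2 stretch on the plus strand at chr19:16324576-16324825. Capitals mark the GC box, CCGCCC or its reverse complement GGGCGG, and the MEF2 core TAAATTTA, which is its own reverse complement.
KLF4: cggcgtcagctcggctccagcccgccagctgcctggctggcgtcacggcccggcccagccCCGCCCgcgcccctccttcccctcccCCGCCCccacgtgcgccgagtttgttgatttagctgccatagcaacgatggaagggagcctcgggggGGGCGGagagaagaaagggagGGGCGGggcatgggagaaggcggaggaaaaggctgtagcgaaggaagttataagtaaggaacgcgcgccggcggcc
KLF2: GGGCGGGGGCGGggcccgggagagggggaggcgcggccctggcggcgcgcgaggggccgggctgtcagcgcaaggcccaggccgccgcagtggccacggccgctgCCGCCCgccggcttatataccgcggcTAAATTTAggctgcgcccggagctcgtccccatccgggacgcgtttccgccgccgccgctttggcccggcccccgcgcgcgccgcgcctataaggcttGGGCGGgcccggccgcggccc
Both stretches held 4 GC boxes. The exact letters TAAATTTA were found in KLF2, beginning 119 bases before its start, but not in KLF4. Other forms of a MEF2 site were not searched, so their presence in either stretch is not known from this search. Of 35116 such stretches 42.6% held a GC box on either strand and 0.541%, or 190, held the MEF2 core. The 9 members with an entry had 14 such stretches, since some have several starts, and of the 14, 9 held a GC box and 1 the MEF2 core. The CACCC box, CACCC or GGGTG, stood in 54.7% of all stretches and in 6 of the 14, which belong to KLF5, KLF7, KLF11 and KLF13. Such a match describes letters in the window and no binding was measured.

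KLF4 had the largest difference among the members. KLF4 is a factor of epithelial differentiation and of the vessel wall and is best known as one of the factors that reprogram somatic cells to pluripotency. Its brighter probe stood at 7.33, 7.90 and 7.99 on the circANRIL arrays, against 9.72, 10.74 and 10.66 on the vector control arrays. Before normalization the background-subtracted intensities of that probe were 146, 194 and 223 in circANRIL cells and 826, 1740 and 1860 in vector control cells. The highest circANRIL array thus lay far below the lowest vector control array, and array 1 was the lowest of its group in both. The means were 7.74 ± 0.36 in circANRIL cells and 10.38 ± 0.57 in vector control cells (SD, n = 3 each), a difference of −2.64 (SE 0.24), so that the level was 6.22-fold higher in vector control cells.

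A second, separate KLF4 probe gave 6.40, 6.65 and 6.92 in circANRIL cells and 8.61, 9.28 and 9.41 in vector control cells. The difference was −2.44 (SE 0.22), and both probes kept their sign under all 16 alternatives, at −2.96 to −2.26 for the brighter and −2.68 to −1.82 for the dimmer one. Both probes read the same RNA samples, so they are 2 measurements of 1 gene and not 2 replicates.

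The 5 genes whose 6 array values, each centred on its own mean, lay nearest to those of KLF4 among 10364 genes detected on all arrays were CD44, TNC, SCARA5, HES2 and GADD45G. Their root mean square distances from KLF4 on the log2 scale were 0.25, 0.33, 0.37, 0.38 and 0.39. CD44, a hyaluronan receptor, had a mean of 7.87 in circANRIL cells and 10.51 in vector control cells, a difference of −2.63, and the other 4 had differences of −3.06, −3.17, −1.94 and −3.36. With 6 arrays in 2 groups this likeness is mostly likeness of the difference between the groups.

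KLF2 had the largest positive difference among the members. KLF2 is the flow-induced factor of endothelium and, in mouse, also keeps T cells quiescent. Its probe stood at 7.59, 7.93 and 8.13 in circANRIL cells and at 6.39, 6.77 and 6.50 in vector control cells, and every circANRIL array lay above every vector control array. The background-subtracted intensities were 180, 198 and 249 in circANRIL cells, against 64.6, 98.2 and 84.3 in vector control cells. The means were 7.89 ± 0.27 and, in vector control cells, 6.55 ± 0.20 (SD, n = 3 each), a difference of 1.33 (SE 0.20) or 2.52-fold, with 0.89 to 1.49 over the alternatives. KLF2 and KLF4, which overlap in function in endothelial cells, thus differed in opposite directions between these lines.

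KLF5, a factor of proliferating epithelial and smooth muscle cells, was dim and lower in circANRIL cells. Its values were 5.62, 5.49 and 5.74 in circANRIL cells and 6.52, 6.54 and 6.50 in vector control cells, with groups that did not overlap and a very narrow vector control group. The difference was −0.90 (SE 0.19), 1.87-fold higher in vector control cells. In the authors' normalized values, whose lowest intensity was 73.6 on 5 arrays and 75.0 on vector control array 3, it was −0.43, the smallest size among the alternatives, whose other end was −0.98.

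KLF6, an injury-induced factor found in most tissues, did not separate the groups. It stood at 7.74, 8.49 and 8.55 in circANRIL cells and at 7.75, 7.79 and 7.74 in vector control cells. circANRIL array 1 lay among the vector control arrays and the other 2 circANRIL arrays lay above them. The difference was 0.50 (SE 0.21), and it became 0.77 without circANRIL replicate 1 and 0.33 with median scaling.

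KLF7, a factor of developing sensory neurons in mouse, was detected on none of the 6 arrays. Its background-subtracted intensities were 5.35, 3.99 and 4.01 in circANRIL cells and 6.65, 1.60 and 2.55 in vector control cells, and no difference can be stated at this signal.

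Among the members that recruit Sin3A, KLF13 was lower in circANRIL cells. It is known from T cells, where it acts on the chemokine gene CCL5. Its values were 7.10, 7.18 and 7.16 in circANRIL cells and 7.96, 8.18 and 8.30 in vector control cells. The groups did not overlap, and the mean of 7.15 ± 0.04 in circANRIL cells and 8.15 ± 0.17 in vector control cells (SD, n = 3 each) gave a difference of −1.00 (SE 0.18), 2.00-fold higher in vector control cells. Over the alternatives the difference ran between −1.15 and −0.72.

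KLF10, also called TGF-beta-inducible early gene, had 3 probes, all dim. The brightest stood at 4.55, 5.24 and 5.25 in circANRIL cells, where it was detected on 2 of 3 arrays, and at 5.99, 6.53 and 6.29 in vector control cells, where it was detected on all. The groups did not overlap, and the difference was −1.26 (SE 0.23) or 2.39-fold higher in vector control cells, with −1.40 to −0.51 over the alternatives. A second probe, at 4.95, 4.92 and 5.14 in circANRIL cells and 5.21, 5.90 and 5.44 in vector control cells, had a difference of −0.51 (SE 0.20). The third was detected on 1 of 3 circANRIL arrays, with 4.34, 5.01 and 4.33, against 4.97, 5.06 and 5.11 in vector control cells, and its groups overlapped at a difference of −0.49 (SE 0.19). All 3 probes were lower on average in circANRIL cells, by amounts that differed between them. None of them was tested when only probes with a detection p under 0.01 on all arrays were kept.

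KLF9, a factor induced by glucocorticoid and thyroid hormone, overlapped between the groups. It stood at 8.89, 9.24 and 9.46 in circANRIL cells and at 9.63, 9.69 and 9.02 in vector control cells, where array 3 lay below 2 circANRIL arrays. The difference was −0.25 (SE 0.20), or −0.46 when vector control replicate 3 was left out and −0.10 when circANRIL replicate 1 was.

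KLF16, first described in mouse brain as a repressor of dopamine receptor genes, was detected on none of the arrays. Its background-subtracted intensities were 0.665, −1.94 and 0.868 in circANRIL cells and 0.908, −5.20 and 1.32 in vector control cells, at the level of the background.

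The other KLF and SP genes are those left after the members were chosen, a choice made with results of this contrast known. They were tested in the fit across all 21191 probes. Of 17 other KLF and SP genes, 15 had a probe and 9 were measured, of which 1 was higher and 2 were lower in circANRIL cells (adjusted p under 0.05, limma). KLF1, KLF14 and KLF17 were detected on too few arrays and KLF18 had no probe.

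KLF15, a glucocorticoid-induced regulator of amino acid and glucose metabolism, was higher. It stood at 6.31, 6.40 and 6.48 in circANRIL cells and at 5.14, 4.88 and 4.97 in vector control cells, with no overlap. The difference was 1.40 (SE 0.19, adjusted p = 6.86e-05 from limma), or 2.64-fold, and 0.58 in the authors' normalized values.

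Of the 3 genes that recruit CtBP, KLF3 and KLF8 fell and KLF12 did not pass the test. KLF3, a repressor known from red blood cells and fat, stood at 5.37, 5.27 and 4.89 in circANRIL cells and at 6.23, 6.97 and 6.40 in vector control cells on its brighter probe. The difference was −1.36 (SE 0.23, adjusted p = 5.85e-04 from limma), or −0.61 in the authors' normalized values, while its other probe gave −0.40 (adjusted p = 0.115). KLF8, a repressor linked to invasion of tumour cells, was detected on 0 of 3 circANRIL arrays, with 4.54, 4.44 and 4.50, and on 3 of 3 vector control arrays, with 5.24, 6.18 and 6.08. Set against the lowest detected level of each circANRIL array, it was at least 2.24-fold lower in circANRIL cells. Its fitted difference was −1.34 (adjusted p = 5.44e-04 from limma), or −0.48 in the authors' normalized values. KLF12 had a mean of 6.02 ± 0.19 in circANRIL cells and 6.39 ± 0.10 in vector control cells (SD, n = 3 each), a difference of −0.37 (adjusted p = 0.205 from limma). When only probes with a detection p under 0.01 on all arrays were kept, KLF3, KLF8 and KLF15 were not tested.

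The SP proteins bind the same GC boxes, and none of the 5 measured SP genes passed the test. The differences were −0.23 for SP1, −0.44 for SP2, −0.34 for SP3, 0.08 for SP4 and −0.30 for SP8, with adjusted p values of 0.392, 0.104, 0.152, 0.790 and 0.357 from limma. At an unadjusted p under 0.05, 2 of them were lower by limma, SP2 and SP3. After adjustment the methods' t-test called 0. With median scaling, which moved the median of all genes to −0.14, SP2 at −0.59 and SP3 at −0.54 passed (adjusted p = 0.0422 and 0.0428) and SP4 turned to −0.08. Further probes gave 0.02 and 0.00 for SP3, −0.17 for SP4 and −0.31 for SP8.

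**Figure D2:**
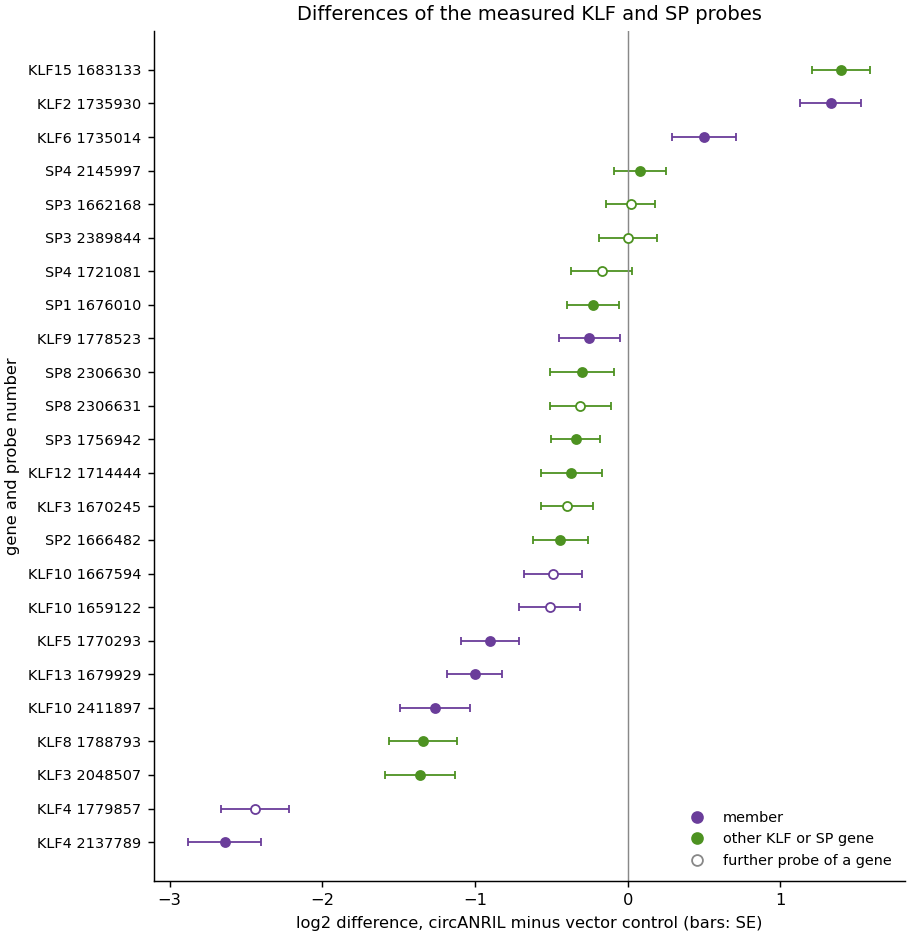
Log2 difference, circANRIL minus vector control, of all measured KLF and SP probes with SE bars from the fit, members in purple, other family genes in green, and open points for further probes of a gene. KLF15 at 1.40 and KLF2 at 1.33 lie at the right end and the KLF4 probes at −2.64 and −2.44 at the left end, while the SP probes lie near 0.

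Positions on the chromosomes were set beside these differences. The 10 nearest measured genes on each side of KLF2 had a median difference of 0.05 and ran between −0.57 and 0.40, all below the 1.33 of KLF2. Those around KLF4 had a median of 0.00, and all 20 lay above KLF4, with PTGR1, an enzyme that inactivates lipid aldehydes and leukotriene B4, at 5.68 as the highest. KLF10 lay below all 20 neighbours, whose median was −0.02, and KLF13 lay below 19 of 20, with a median of 0.01.

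The median of the neighbours had the sign of the member for KLF2, KLF10, KLF5 and KLF6, and among the measured members it was largest in size for KLF5 and KLF6. Around KLF5 and KLF6 most neighbours did not pass the test and some had the other sign. The 20 genes around KLF5 on chromosome 13 ran between −1.02 and 0.26, with a median of −0.29, with 6 called lower, 0 called higher and 3 below KLF5, and the median over 222 genes of chromosome 13 was −0.28. KLF12, on the same chromosome, had neighbours with a median of −0.31. Around KLF6 the range was −0.36 to 1.06 and the median 0.42, near its own 0.50, with 5 of 20 called higher and none lower. The part of chromosomal position in these values was not tested.

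**Figure D3:**
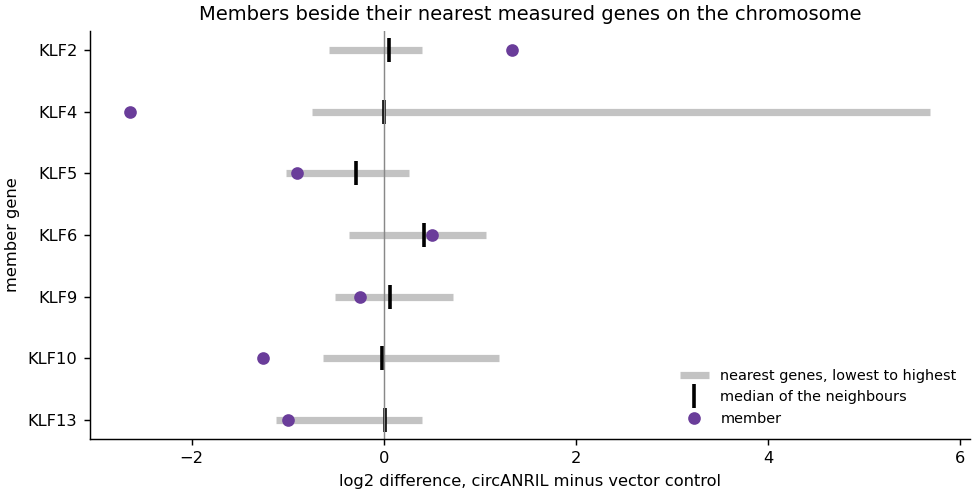
Log2 difference, circANRIL minus vector control, of each measured member (purple point) beside the range (grey bar) and median (black mark) of its 20 nearest measured genes on the chromosome. KLF2, KLF4 and KLF10 lie outside the range of their neighbours and KLF5, KLF6, KLF9 and KLF13 inside it.

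Partners, upstream pathways and known targets of the members were taken from 9 lists with 133 genes, of which 100 were measured. Of these, 16 were higher and 16 lower in circANRIL cells and 68 did not pass, that is 16% in each direction beside 11.4% and 9.26% of all genes. With median scaling 11 were higher and 20 lower.

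Among 19 measured coregulators, which carry KLF activity to chromatin or mark KLF proteins for destruction, 0 were higher and 4 lower, with a median of −0.15. At an unadjusted p under 0.05 these counts were 1 and 5 by limma, and after adjustment the methods' t-test called 0 and 1. CREBBP, the acetyltransferase that acetylates several KLF proteins, had 8.62 ± 0.23 in circANRIL cells and 9.38 ± 0.15 in vector control cells (SD, n = 3 each), a difference of −0.76 (adjusted p = 0.00529 from limma). FBXW7, the ubiquitin ligase subunit that targets KLF5 and KLF2 for degradation, differed by −0.78 (adjusted p = 0.00629) on its brightest probe, and its other tested probes gave −0.59 (adjusted p = 0.0508) and −0.28. WDR5, a subunit of the histone H3 lysine methyltransferase complexes, differed by −0.84 (adjusted p = 0.00356), with 0.37 (adjusted p = 0.184) on another probe.

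The co-repressors gave values that differed between probes. CTBP1 differed by −0.49 (adjusted p = 0.0418 from limma), and without circANRIL replicates 1, 2 or 3 or vector control replicates 2 or 3, left out singly, its adjusted p was 0.113, 0.117, 0.0732, 0.106 and 0.0865. Its other probes gave −0.65 (adjusted p = 0.0234) and 0.11 (adjusted p = 0.702). SIN3A, the partner of KLF9, KLF10, KLF13 and KLF16, had a mean of 9.59 in circANRIL cells and 9.59 in vector control cells, a difference of 0.00 (adjusted p = 0.997). HDAC2, a deacetylase of the Sin3A complex, differed by −0.15 (adjusted p = 0.390) on its brighter probe and by −1.11 (adjusted p = 0.00224) on a dim one, which was named after its values were seen. EP300 gave −0.30 (adjusted p = 0.282) and WWP1, a ubiquitin ligase of KLF2 and KLF5, 0.22 (adjusted p = 0.36). Without vector control replicate 1 the list had 1 higher and 4 lower genes, and with median scaling 0 and 7.

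The ERK5 pathway, in which MEKK2 and MEKK3 activate MEK5 and ERK5, and MEF2 factors then induce KLF2 and KLF4, is held back in endothelium by the CCM proteins. Of its 10 measured genes 1 was higher and 0 lower, with a median of 0.25. At an unadjusted p under 0.05 these counts were 1 and 2 by limma, and the methods' t-test called none after adjustment. With median scaling the counts turned to 0 higher and 1 lower, and when vector control replicate 2 was left out they were 1 and 1. CCM2 stood at 9.15, 9.46 and 9.28 in circANRIL cells and at 8.22, 9.12 and 8.64 in vector control cells, a difference of 0.64 (adjusted p = 0.0379 from limma). It did not pass when any array but vector control replicate 2 was left out, with adjusted p values between 0.0566 and 0.158. MAPK7, the gene of ERK5, gave −0.52 (adjusted p = 0.0890 from limma), and −0.53 (adjusted p = 0.107) on another tested probe. MAP2K5, the gene of MEK5, gave 0.37 (adjusted p = 0.213), and 0.53 (adjusted p = 0.0706) on another probe, where the groups did not overlap. MEF2A stood at 0.38 (adjusted p = 0.169, and −0.12 on another probe), MEF2C at 0.25 (adjusted p = 0.424) and MEF2D at 0.40 (adjusted p = 0.192).

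TGF-beta signalling induces KLF10, and KLF10 acts back on SMAD7, the inhibitor of the pathway. Of 13 measured genes of the pathway 0 were called by limma in either direction, and the median was −0.07. SMAD7 differed by −0.43 (adjusted p = 0.111), and by −0.93 on its dimmer probe (adjusted p = 0.00351). At an unadjusted p under 0.05 limma gave 0 higher and 2 lower genes, and the methods' t-test called 1 gene lower after adjustment.

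Serum immediate-early genes share with KLF2, KLF4, KLF6 and KLF10 a rapid response to growth factors. Of 18 measured genes 7 were higher and 3 lower, with a median of 0.32. FOS stood at 7.93, 8.71 and 8.45 in circANRIL cells and at 6.38, 6.17 and 5.76 in vector control cells, a difference of 2.26 (SE 0.23, adjusted p = 4.35e-06 from limma). EGR1 differed by 1.37 (adjusted p = 1.44e-04) and ZFP36, which destabilizes cytokine messages, by 1.48 (adjusted p = 2.44e-04). The 3 lower genes were MYC at −1.15 (adjusted p = 7.57e-06), IER5 at −1.05 (adjusted p = 9.30e-04) and SRF, the factor that drives many genes of the list, at −0.74 (adjusted p = 0.00358). The higher genes numbered 4 when circANRIL replicate 2 was left out, 4 under median scaling and 0 by the methods' t-test, and the lower genes numbered 3, 3 and 1 in these settings.

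Glucocorticoid induces KLF9 and KLF15 in many tissues. Of 11 measured glucocorticoid-induced genes 2 were higher and 2 lower, with a median of −0.06. TSC22D3 differed by 6.73 (adjusted p = 2.94e-13 from limma). Its means were 12.10 ± 0.30 in circANRIL cells and 5.37 ± 0.05 in vector control cells (SD, n = 3 each). Its other tested probes gave 6.51 and 2.31, and its untested probes were detected on no array. FKBP5 differed by −0.06 (adjusted p = 0.843) and the receptor NR3C1 by −0.13 (adjusted p = 0.714). MT1X, a metallothionein, differed by −0.87 (adjusted p = 0.00359). NFKBIA, the inhibitor of NF-kappaB, differed by 0.58 (adjusted p = 0.0275), with 0.130, 0.103 and 0.102 without circANRIL replicates 2 or 3 or vector control replicate 3. CDKN1C was detected on 0 circANRIL arrays and was at least 1.32-fold lower. Its fitted difference was −0.59 (adjusted p = 0.0212 from limma). The adjusted p was 0.104 and 0.0773 without circANRIL replicate 3 or vector control replicate 2. Leaving out single arrays gave 1 to 3 higher and 1 to 2 lower genes.

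KLF4, KLF2 and KLF5 belong to the circuit that keeps mouse embryonic stem cells pluripotent. Of 8 measured pluripotency genes 2 were higher and 1, MYC, was lower, with a median of −0.06. TFCP2L1, a factor of naive pluripotency, stood at 5.76, 6.10 and 6.13 in circANRIL cells and at 4.59, 4.69 and 4.59 in vector control cells, where it was detected on 1 of 3 arrays, a difference of 1.38 (adjusted p = 5.97e-05 from limma). MYCN differed by 0.54 (adjusted p = 0.0318), and its adjusted p was 0.0577 to 0.104 without any array but vector control replicate 1. SOX2 differed by 0.00 (adjusted p = 0.999) on its brighter probe and by −0.58 (adjusted p = 0.0793) on another, where the groups did not overlap.

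Of 14 measured targets of KLF2 and KLF4, 3 were higher and 5 lower, with a median of −0.06. CDH1, the epithelial cadherin that KLF4 activates, stood at 6.14, 6.36 and 5.87 in circANRIL cells and at 4.32, 4.49 and 4.30 in vector control cells, where it was detected on 0 of 3 arrays. It was at least 2.80-fold higher in circANRIL cells, and its fitted difference was 1.75 (adjusted p = 5.85e-06 from limma). ASS1, an enzyme of arginine synthesis that KLF2 induces in endothelium, differed by 1.11 (adjusted p = 7.72e-04) and ACTA2, the smooth muscle actin that KLF4 represses, by 0.73 (adjusted p = 0.00493).

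CCND1, the gene of cyclin D1, which KLF4 represses and KLF5 activates, had 9.52 ± 0.37 in circANRIL cells and 10.57 ± 0.14 in vector control cells (SD, n = 3 each), a difference of −1.05 (adjusted p = 6.04e-04 from limma). BIRC5, the survivin gene, differed by −0.71 (adjusted p = 0.00329). NOS3, the endothelial nitric oxide synthase and a KLF2 target, was detected on 0 circANRIL arrays and was at least 1.23-fold lower. Its fitted difference was −0.62 (adjusted p = 0.0150 from limma). The adjusted p was 0.0505, 0.0518 and 0.0645 without circANRIL replicates 1 or 3 or vector control replicate 2. CDKN1A, the cell cycle inhibitor that KLF4 and KLF6 activate, differed by −0.21 (adjusted p = 0.341). Without circANRIL replicate 3, 3 genes of the list were higher and 2 lower. Leaving out vector control replicate 1 gave 3 and 3, and leaving out circANRIL replicate 1 gave 4 and 3.

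Of 13 measured targets of KLF5 and KLF6, which include CCND1 and BIRC5 again, 1 was higher, EGR1, and 4 were lower, with a median of 0.05. CCNB1, the mitotic cyclin B1, differed by −0.51 (adjusted p = 0.0427 from limma), and it passed only with vector control replicate 2 left out among the arrays left out singly, at 0.0180, with 0.0531 to 0.170 otherwise. The list had 2 lower genes without circANRIL replicates 1, 2 or 3 or vector control replicate 3, left out singly, and 2 higher without circANRIL replicate 1 or vector control replicate 1.

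Of 8 measured targets of KLF7, KLF9, KLF10, KLF11, KLF13 and KLF16, 1 was higher and 1 lower, with a median of −0.25. MAOA, the monoamine oxidase gene on which KLF11 acts, stood at 9.03, 9.11 and 9.10 in circANRIL cells and at 6.17, 6.37 and 8.47 in vector control cells, where array 3 lay far above the other 2. The difference was 2.07 (SE 0.40, adjusted p = 0.00193 from limma), and 2.78 without vector control replicate 3. GAP43, a growth cone protein listed as a KLF7 target, was dim and differed by −0.70 (adjusted p = 0.0144), with 0.0711 without circANRIL replicate 1. CCL5, the KLF13 target, differed by 0.29 (adjusted p = 0.309).

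**Figure D4:**
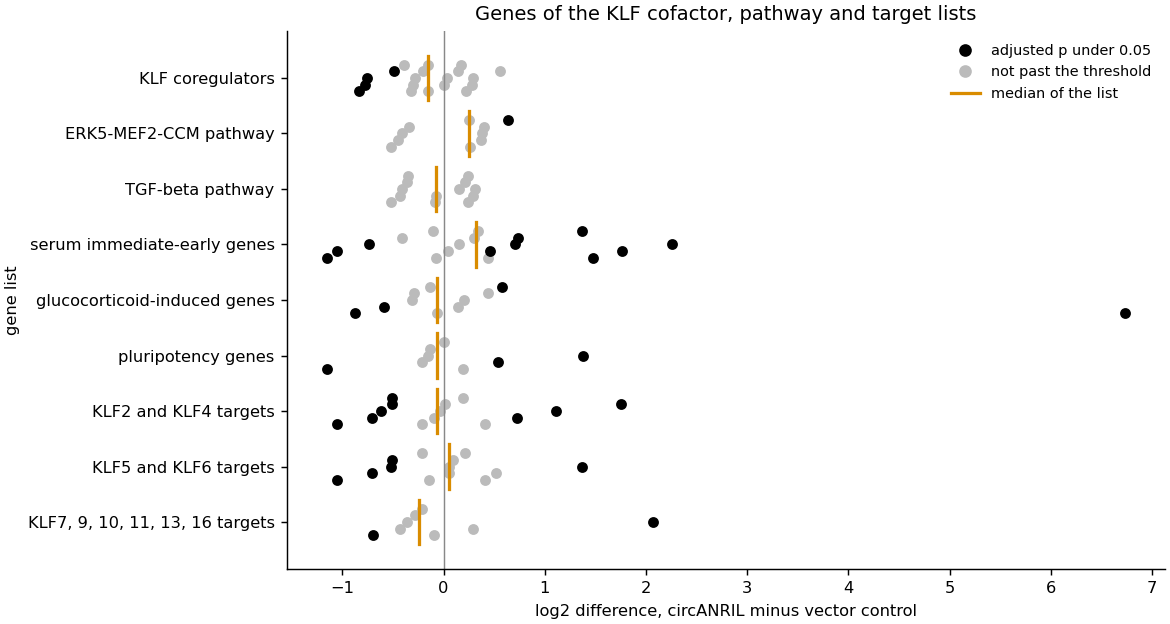
Log2 difference, circANRIL minus vector control, of each measured gene of the 9 lists, with black points for genes past an adjusted p of 0.05, grey points for the others and an orange bar for the median of the list. Medians lie between −0.25 and 0.32, black points stand on both sides of 0 in most lists, and TSC22D3 stands apart at 6.73.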

How the data were processed

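Bead data were processed by the authors in GenomeStudio (version 2011.1, per the submitters' processing notes). The deposited table held, for each probe and array, an intensity from which the authors had subtracted background, not normalized between arrays, and a detection p-value. A second deposited table of normalized intensities served as an alternative. Background was corrected with neqc (normexp from the detection p-values, then quantile normalization and log2, offset 16; limma 3.58.1, R 4.3.3). The 21191 of 47315 probes that 3 or more arrays detected at p under 0.05 were kept. Of 30110 probes with 1 gene symbol in the platform annotation, 30071 matched RefSeq's GRCh38.p14 gene table by gene identifier. Another 8 probes had several symbols and were not used, and 16237 kept probes had a symbol.

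circANRIL and vector control arrays were compared by limma (lmFit, eBayes with intensity trend), adjusted by Benjamini-Hochberg over the kept probes, with a threshold of 0.05. The fit was tested on simulated data. A gene is represented by its kept probe of highest mean. Where a group did not detect a probe, the fold is a bound, computed with the lowest signal detected on each array in its place. Members and lists were chosen with earlier results of these data known. Named are all members, the measured KLF and SP genes, up to 3 genes per direction and list by smallest p, direct partners, and the 5 genes nearest to KLF4. No batch, slide or date is given for the arrays, and none were identical. Alternatives were other background corrections, median scaling, the authors' normalized values, other filters, limma without trend, the methods' t-test, leaving out each array, and the replicate number as a block. The methods' t-test is the one the authors name for comparing groups in general, applied here per probe with the same adjustment. For these arrays the authors selected transcripts by fold change. Median scaling over kept probes was added after seeing the data.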

Additional observations from a re-analysis of the deposited data

How the results depend on the processing

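With 3 arrays per group, and with dim probes such as those of KLF10, KLF3 and KLF8, small differences are beyond what these data can show. No difference of a called KLF or SP probe changed sign in any alternative, and the lowest and highest differences of the members stand beside their values. The authors' normalized values gave the smallest differences for KLF2, KLF4, KLF5, KLF10 and KLF13. The 3753 probes called became 2138 to 3322 when single arrays were left out, 484 with the methods' t-test (5388 at an unadjusted p under 0.05), and 3531 with the replicate block. Deviations of arrays with the same number correlated at 0.0026, 0.082 and −0.13. With 3 arrays per group these values cannot decide whether the numbers pair the arrays, and the labels do not say.

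Member genes called higher numbered 1, with 0 by the methods' t-test and 1 to 2 with single arrays left out, the 2 being without circANRIL replicate 1. Member genes called lower numbered 4, with 2 by the methods' t-test, and KLF10 was not tested at a detection p under 0.01 on all arrays. The other KLF and SP genes numbered 1 higher and 2 lower, with 0 and 0 at a detection p under 0.01 on all arrays, 4 lower with median scaling and 0 lower by the methods' t-test. The 16 higher and 16 lower pathway genes became 3 and 3 by the methods' t-test, 10 to 15 and 10 to 14 with single arrays left out, and 11 and 20 with median scaling. Median scaling moved the median of all genes to −0.14, against −0.02, and gave 1418 higher and 2974 lower probes, so that 32.3% of calls were higher in place of 52.4%. The cause of these changes was not tested, except that the stricter filter tests fewer probes and leaving out an array leaves fewer samples. Median scaling over the kept probes gave 1963 higher and 1791 lower probes.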
